A study of Homo sapiens with 6 samples.

Results

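The genes described here are the 8 E2F transcription factor genes, E2F1 to E2F8, and the cyclin E genes CCNE1 and CCNE2. They were picked out by gene symbol and are 10 of the 27420 genes listed in an RNA-Seq table of Ewing sarcoma cells. The cells were the established lines A673 and SKNMC, both from Ewing sarcoma, a bone and soft tissue tumour driven by the EWS-FLI1 fusion. Each line was given the vehicle DMSO, 50 nM THZ1 (low-dose) or 200 nM THZ1 (high-dose) for 6 h. THZ1 is a covalent inhibitor of CDK7, and the experiment asked how the transcripts of these cells respond to it. The labels give 1 library for each of the 6 conditions, and the titles of some libraries spell the second line SKMNC. Within a line there are no replicates, so the changes of a single line describe these libraries and carry no p-value. A test was made only across the lines, with the line as a block.

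E2F factors bind the promoters of genes needed for DNA replication and cell division. In resting cells the pocket proteins RB1, RBL1 and RBL2 hold them inactive. Cyclin E, bound to CDK2, phosphorylates the pocket proteins at the entry into S phase and so frees the E2Fs, and the genes of E2F1 and cyclin E are themselves E2F targets, which closes a positive loop. CDK7 has a place in both parts of this circuit, since it phosphorylates RNA polymerase II within TFIIH and activates CDK2 and other cell cycle kinases. E2F1, E2F2 and E2F3 are usually grouped as activators, E2F4 and E2F5 as repressors that work with pocket proteins, E2F6 as a repressor that works with Polycomb proteins, and E2F7 and E2F8 as atypical repressors that bind DNA without a DP partner.

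The letters of E2F-type motifs of 7 bases were looked for in the promoter windows that RefSeq gives on GRCh38.p14. These windows run from 250 bases before to 50 bases after a start. A window was found for 7 of the 10 genes, and E2F5, E2F8 and CCNE2 were not matched. The 4 motifs were TTTCGCG or TTTGGCG or TTTCCCG or TTTGCCG, searched on both strands, with overlapping matches counted separately. They were present in 3045 of all 35116 windows (8.67%), and in 12.7% of the windows of genes active in both lines. At least 2 matches were found in 0.681% of all windows and in 1.23% of those of active genes. E2F1, E2F2, E2F3 and E2F6 each had at least 2 matches, and E2F4, E2F7 and CCNE1 had none of these letters in their window. The 100 bases before the start follow for the 4 genes with matches and for E2F4 as a gene without one, with every match in capitals. The E2F1 stretch (chr20:33686386-33686485, minus strand) holds 3 matches, of which the first and the second overlap on opposite strands.
E2F1: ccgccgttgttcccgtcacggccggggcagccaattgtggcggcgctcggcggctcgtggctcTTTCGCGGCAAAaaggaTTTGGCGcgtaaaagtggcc
The E2F2 stretch (chr1:23531234-23531333, minus strand) holds 2 matches.
E2F2: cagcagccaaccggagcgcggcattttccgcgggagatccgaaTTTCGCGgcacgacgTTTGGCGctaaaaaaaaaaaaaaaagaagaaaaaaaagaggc
E2F3 has 2 windows, and the match-bearing one (chr6:20401779-20401878, plus strand) holds 2 matches on opposite strands, while the other holds none.
E2F3: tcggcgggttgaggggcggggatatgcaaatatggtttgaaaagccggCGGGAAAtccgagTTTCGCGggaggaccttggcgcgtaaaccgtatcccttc
The E2F6 stretch (chr2:11466162-11466261, minus strand) shows 1 of its 2 matches, the other lying further upstream.
E2F6: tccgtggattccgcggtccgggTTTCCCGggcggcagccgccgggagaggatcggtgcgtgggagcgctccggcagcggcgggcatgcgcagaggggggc
The E2F4 stretch (chr16:67192055-67192154, plus strand) holds none.
E2F4: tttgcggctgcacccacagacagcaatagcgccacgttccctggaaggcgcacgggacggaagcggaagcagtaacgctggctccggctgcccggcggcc
The deposited values are summed per gene, so the transcripts from the E2F3 starts cannot be told apart. The sequences are printed as context, and a match is not evidence that a factor bound there.

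Each level is given in FPKM, fragments per kilobase of transcript and per unit of mapped fragments, which allows genes to be compared per length. A gene was called active in a line when its FPKM was above 1 in the DMSO library of that line, and all 10 genes were active in both lines. A change is the log2 ratio of FPKM with 1 added, THZ1 over DMSO of the same line. Adding 1 makes the change of a lowly expressed gene look smaller than the ratio of its FPKM. A gene was called decreased or increased when it changed at least 2-fold on that scale. In each library the listed FPKM summed to between 97.8% and 101% of the DMSO library of its line. FPKM holds no read counts, so the absolute depth is unknown. From the smallest values, the depth of the THZ1 libraries was put at 88.9% to 96.6% of their DMSO library, a rough estimate since at most 2.62% of low genes sat at that step. Of the 5 Ewing sarcoma markers CD99, NKX2-2, STEAP1, NR0B1 and PRKCB, all were present in every library, at 3.6 to 763 FPKM. Among markers of other cells, CD3E was listed at 0 throughout and EPCAM reached at most 0.826 FPKM. The leukocyte marker PTPRC was at 7.90 to 13.1 FPKM in SKNMC and at most 0.0291 FPKM in A673, and PECAM1 had no single row. PTPRC, EPCAM and CD3E together summed to between 0.043 and 14.0 FPKM per library, and their part in the differences between the lines was not tested.

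Every E2F and cyclin E gene was lower with THZ1 than with DMSO, at both doses and in both lines, in 40 of 40 comparisons of a gene with its control. The exception under other scalings was E2F3 in A673 at 50 nM, at -0.12 as deposited and 0.12 when libraries were divided by the 75th percentile of their active genes. Lower values were also the rule among all active genes, at 70.1% and 70.4% in A673 and at 73% and 80.8% in SKNMC for the low and the high dose. High-dose THZ1 decreased 9 of the 10 genes in A673, where 25.3% of 11077 active genes decreased, and 9 of the 10 in SKNMC, where 27.3% of 11896 did. In both lines the gene left out was E2F1. Low-dose THZ1 decreased 5 genes in A673 (E2F4, E2F5, E2F6, E2F8 and CCNE2; 15.9% of active genes decreased) and 4 in SKNMC (E2F1, E2F5, E2F8 and CCNE2; 15.8%). No E2F or cyclin E gene increased, against 0.343% and 0.126% of active genes in A673 and 0.471% and 0.462% in SKNMC at the low and the high dose. A decrease of at least 4-fold was seen for E2F5 and E2F8 in both lines at 50 nM, where 1.37% of active genes in A673 and 1.24% in SKNMC reached it. Divided by the 75th percentile, 1 gene in each line did, since E2F8 in A673 (-1.84) and E2F5 in SKNMC (-1.96) fell short. Of all active genes, 0.695% in A673 and 0.605% in SKNMC did under that scaling. At 200 nM, 4 genes in A673 (E2F3, E2F5, E2F6 and E2F8; background 4.70%) and 6 in SKNMC (E2F2, E2F3, E2F5, E2F6, E2F8 and CCNE1; background 3.53%) reached 4-fold. Divided by the 75th percentile, 2 genes in A673 and 3 in SKNMC did, where 2.59% and 1.28% of active genes did. The low-dose and high-dose median changes of the 10 genes were -1.03 and -1.67 in A673, with -0.27 and -0.40 for all active genes. The SKNMC medians were -0.95 and -2.24, with -0.32 and -0.55 over the active genes of that line. The test across both lines was limma on the log2 values of the 10574 genes active in both, with the line as a block and 2 residual degrees of freedom, and it was chosen after the values were seen. It takes the lines as replicates of a dose, so its p-values rest on the spread between the responses of the 2 lines. The variance of each gene was drawn towards a trend over all genes tested, so the p-values do not measure the spread of that gene alone. At 200 nM all 10 genes were lower at an adjusted p under 0.05, as were 52.7% of the genes tested. E2F5 (-2.61 ± 0.17, SE) had the smallest limma adjusted p (1.48e-06) and E2F1 (-0.69 ± 0.16) the largest (0.003), and E2F1 alone did not pass when libraries were divided by the 75th percentile (adjusted p = 0.155). At 50 nM 8 genes passed, as did 38.5% of the genes tested, and E2F3 (-0.39 ± 0.18, limma adjusted p = 0.0916) and CCNE1 (-0.61 ± 0.31, 0.14) did not. In bulk RNA, fewer cells expressing a gene and less of its RNA per cell cannot be told apart.

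**Figure D1:**
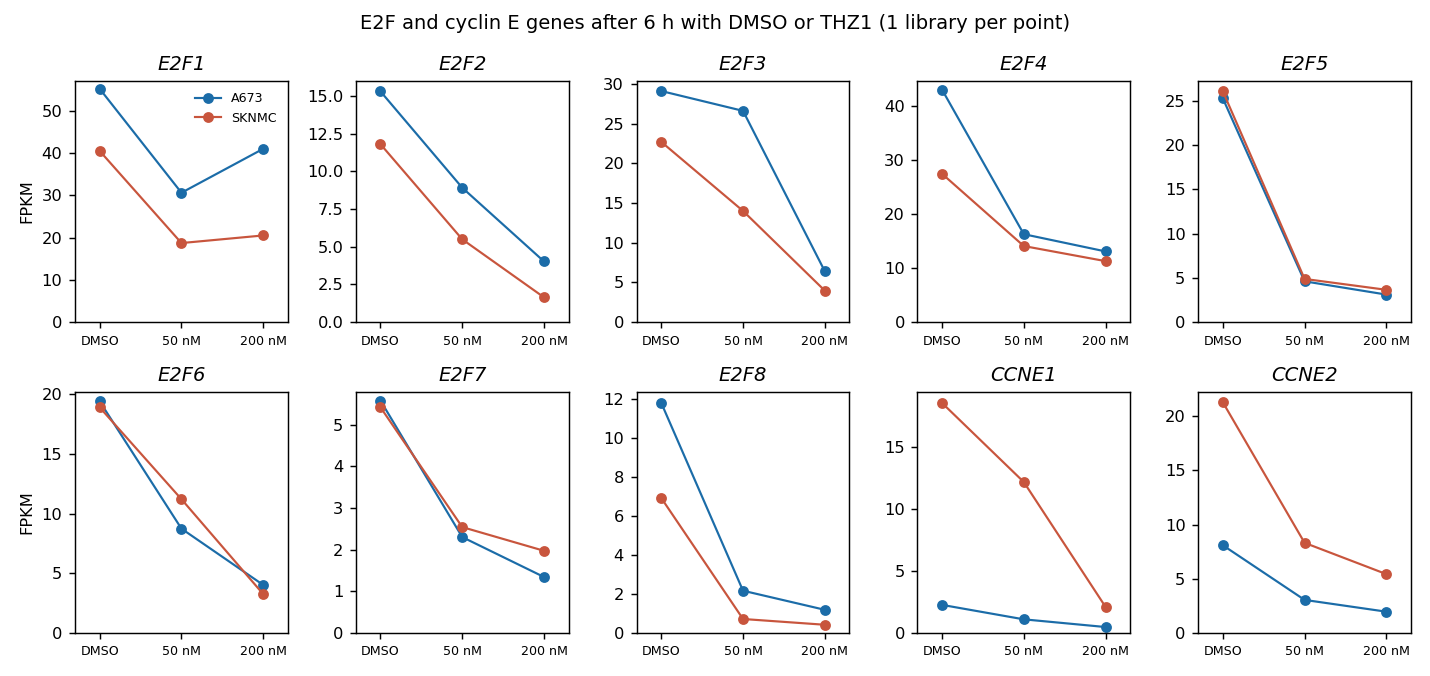
FPKM (y axis, linear, starting at 0, with its own range in each panel) of the 8 E2F and the cyclin E genes with DMSO, 50 nM or 200 nM THZ1 (x axis), where each point is 1 library, A673 in blue and SKNMC in red. The DMSO point was the highest of its line in every panel, and E2F1 was the gene whose 200 nM point lay above its 50 nM point in both lines.

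Among the activators, E2F1 was the most abundant of the 10 genes in all 6 libraries and the one changed least at high dose. E2F1 (ENSG00000101412, chr20:32263488-32274210, minus strand, hg19) is known for roles in both S phase entry and cell death. In A673 it was at 55.2, 30.6 and 41.0 FPKM with DMSO, low-dose and high-dose THZ1. In SKNMC it was at 40.5, 18.7 and 20.5 FPKM. The lowest library of each line was thus the low-dose one, at 55.4% and 46.3% of DMSO, and the high-dose one stood at 74.3% and 50.5%. The log2 changes were -0.83 and -0.42 in A673 and -1.07 and -0.95 in SKNMC. In A673 at 200 nM, E2F1 sat near the middle of all active genes, 48.7% of which had a lower change. The log2 ratio of 200 nM to 50 nM was 0.41 in A673 and 0.12 in SKNMC, but -0.06 in SKNMC when libraries were scaled to the median of ribosomal protein genes.

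E2F2 and E2F3 had their larger step between the doses. E2F2 (chr1:23832921-23857712, minus strand, hg19) was at 15.3, 8.91 and 4.02 FPKM in A673 with DMSO, 50 nM and 200 nM THZ1. In SKNMC the E2F2 values were 11.8, 5.49 and 1.64 FPKM, so the level was lower at each dose in both lines. The log2 changes of E2F2 were -0.71 and -1.70 in A673 and -0.98 and -2.27 in SKNMC. E2F3 (chr6:20402397-20493941, plus strand, hg19), whose span of 91.5 kb is the longest of the 10 genes, was at 29.1, 26.6 and 6.4 FPKM in A673. In SKNMC it was at 22.7, 14.0 and 3.96 FPKM. The low-dose library of A673 kept 91.4% of the E2F3 level with DMSO, while the high-dose library kept 22.0%. The corresponding changes were -0.12 and -2.02 in A673 and -0.66 and -2.26 in SKNMC.

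The pocket protein-dependent repressors E2F4 and E2F5 were lower mainly from the low dose on. E2F4 (chr16:67226071-67232821, plus strand, hg19), usually the most abundant E2F of resting cells, was at 43.1, 16.3 and 13.1 FPKM in A673. In SKNMC it was at 27.5, 14.1 and 11.3 FPKM. Its changes were -1.35 and -1.64 in A673 and -0.92 and -1.21 in SKNMC. The high-dose library held 80.6% of the low-dose level in both lines, so most of the difference from DMSO was present at 50 nM.

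E2F5 had the lowest mean change of the 10 genes over the 4 comparisons, -2.41. E2F5 (ENSG00000133740, chr8:86089459-86129387, plus strand, hg19) was at 25.3, 4.61 and 3.11 FPKM in A673 and at 26.1, 4.88 and 3.65 FPKM in SKNMC. The levels of both lines were close in each condition, and each THZ1 library was far under its DMSO library, at 12.3% to 18.7% of it. The changes were -2.23 and -2.68 in A673 and -2.20 and -2.54 in SKNMC. Between 0.560% and 0.815% of active genes had a lower change in the same comparison. E2F5 overlaps C8orf59 on the opposite strand, with 991 bases of shared exon in GENCODE 44, and C8orf59 was at 52.0 to 60.8 FPKM in all 6 libraries. Whether the counting used strand is not stated, so reads of the shared exon may not be told apart.

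E2F6, which represses through Polycomb and needs no pocket protein, was lower at each dose, with its lowest value at 200 nM. E2F6 (chr2:11584500-11606297, minus strand, hg19) was at 19.4, 8.73 and 4.01 FPKM in A673 and at 18.9, 11.2 and 3.24 FPKM in SKNMC. The DMSO levels of both lines were close, at a log2 difference of -0.03 for SKNMC against A673. The changes were -1.07 and -2.03 in A673 and -0.70 and -2.23 in SKNMC.

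The atypical repressors E2F7 and E2F8 limit E2F1-driven transcription and are usually expressed together in S and G2 phase. E2F7 (chr12:77415026-77459360, minus strand, hg19) was at 5.58, 2.3 and 1.34 FPKM in A673 and at 5.42, 2.54 and 1.97 FPKM in SKNMC. Its changes were -0.996 and -1.49 in A673 and -0.86 and -1.11 in SKNMC. The first of these lay just outside 2-fold. E2F8 was lowered more. E2F8 (ENSG00000129173, chr11:19245609-19263167, minus strand, hg19) was at 11.8, 2.16 and 1.18 FPKM in A673 and at 6.92, 0.709 and 0.413 FPKM in SKNMC. The high-dose libraries held 9.96% and 5.97% of the E2F8 level with DMSO, the lowest shares among the 10 genes in each line. The changes on the scale with 1 added were -2.02 and -2.56 in A673 and -2.21 and -2.49 in SKNMC.

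The cyclin E genes differed between the lines with DMSO alone. CCNE1 (ENSG00000105173, chr19:30302804-30315215, plus strand, hg19), one of the activating subunits of CDK2, was at 2.26, 1.09 and 0.467 FPKM in A673. In SKNMC it was at 18.6, 12.2 and 2.09 FPKM, so the SKNMC value was the higher in every condition. CCNE2 (chr8:95891997-95908906, minus strand, hg19), which encodes the other E-type cyclin, was at 8.09, 3.04 and 1.95 FPKM in A673 and at 21.3, 8.31 and 5.42 FPKM in SKNMC. With DMSO, CCNE1 was 8.24-fold and CCNE2 2.63-fold as high in SKNMC as in A673, 2.59 and 1.29 on the log2 scale with 1 added. Among genes active in both lines, 8.96% of 10574 were at least 2-fold higher in SKNMC. Scaled to the ribosomal protein genes, the CCNE2 difference was 0.86 and no longer 2-fold, while that of CCNE1 was 2.16. The log2 differences of the 8 E2F genes between the DMSO libraries ran from -0.69 for E2F8 to 0.04 for E2F5, with a median over all genes active in both lines of 0.05. Under the ribosomal scaling E2F4 was at -1.07 and E2F8 at -1.09, where that median was -0.37. The share of genes at least 2-fold lower in SKNMC was not computed.

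Under THZ1, the dose patterns of CCNE1 and CCNE2 differed mainly in SKNMC. From 50 to 200 nM, CCNE1 and CCNE2 changed by -0.51 and -0.45 in A673 and by -2.09 and -0.54 in SKNMC. CCNE1 changed by -0.64 and -1.15 in A673 and by -0.57 and -2.67 in SKNMC at 50 and 200 nM. Its high-dose library held 20.7% of the DMSO level in A673 and 11.2% in SKNMC. Because CCNE1 was low in A673, adding 1 makes its change there look smaller, and the SKNMC change minus the A673 change at 200 nM was -1.52 on that scale. For the other 9 genes the same difference lay between -0.58 and 0.44. With a pseudocount of 0.1 the difference was -1.04 for CCNE1 and -0.87 for E2F2, the next lowest. CCNE2 changed by -1.17 and -1.62 in A673 and by -1.26 and -1.79 in SKNMC, with differences between the lines of -0.09 and -0.17. CCNE2 overlaps INTS8 on the opposite strand, with 1629 bases of shared exon. INTS8 was at 26.2, 14.4 and 20.2 FPKM in A673 and at 25.1, 14.0 and 20.9 FPKM in SKNMC, and with strand use not stated the reads of the shared part may not be told apart.

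**Figure D2:**
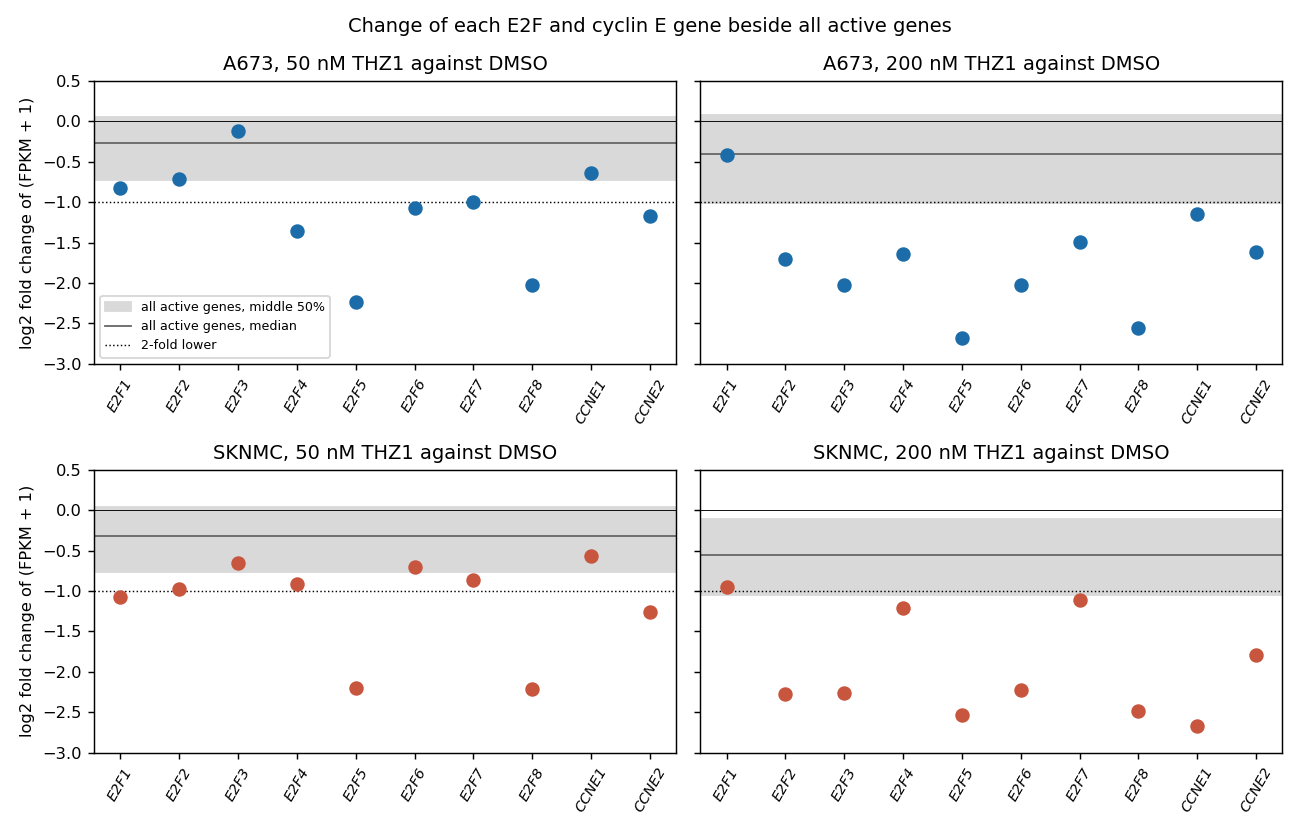
Log2 fold change of FPKM with 1 added (y axis) of each gene (x axis) in the 4 comparisons of a THZ1 library with the DMSO library of its line, with the median (grey line) and middle 50% (grey band) of all active genes and a dotted line at 2-fold lower. E2F5 and E2F8 were at least 4-fold lower in all 4 panels, and E2F1 was the gene above the dotted line in both 200 nM panels.

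The doses were then compared with each other. Between 50 and 200 nM, E2F3 was the gene at least 2-fold lower in A673 (-1.90), where 7.44% of active genes were, with E2F2 (-0.98) and E2F6 (-0.96) just outside. In A673, E2F2 was past 2-fold under the common sum (-1.01), and E2F2 (-1.08) and E2F6 (-1.06) were under the ribosomal scaling. With a pseudocount of 0.1, E2F2 (-1.13), E2F6 (-1.1) and CCNE1 (-1.07) were past it too. The A673 median over all active genes was -0.04, -0.12 and -0.02 in the same order. The share of active genes past 2-fold was not computed under these settings. In SKNMC, E2F2 (-1.30), E2F3 (-1.59), E2F6 (-1.53) and CCNE1 (-2.09) were at least 2-fold lower, where 8.39% of active genes were. In each line 9 of the 10 genes were lower at 200 nM than at 50 nM by any amount, against 51.7% of active genes in A673 and 62% in SKNMC. Across both lines, limma with the line as a block put E2F2 (-1.14 ± 0.19, SE), E2F3 (-1.75 ± 0.18), E2F6 (-1.24 ± 0.19) and CCNE1 (-1.30 ± 0.31) lower at 200 than at 50 nM, as it did 23.2% of the genes tested. The adjusted p was 0.00996 for CCNE1 and smaller for the other 3. For E2F1 the limma difference was 0.27 ± 0.16 (adjusted p = 0.242), and 0.46 ± 0.13 (0.0273) when libraries were divided by the 75th percentile. Under that scaling 1722 of the 10574 genes tested were higher at an adjusted p under 0.05, against 356 as deposited. The share of the high-dose log2 change already present at the low dose gave the same higher and lower group of genes in both lines. Within a group the order of this share differed between the lines. It was 83.2% and 86.7% for E2F5 in A673 and SKNMC, 78.9% and 89.0% for E2F8, 82.2% and 76.2% for E2F4, 72.0% and 70.1% for CCNE2 and 66.7% and 77.0% for E2F7. It was 42.1% and 42.9% for E2F2, 52.7% and 31.5% for E2F6, 55.7% and 21.5% for CCNE1 and 6.18% and 29.4% for E2F3. For E2F1 it was above 100% in both lines, since the low-dose change was the larger. The libraries of a line share the DMSO control, so these shares are descriptions of 3 libraries each.

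The pairs of genes with the most similar changes were not always of one role. As the root mean square difference over the 4 changes, E2F5 and E2F8 were the closest pair (0.127 log2 units), followed by E2F4 and E2F7 (0.201) and E2F2 and E2F6 (0.279). The most distant pair was E2F1 and E2F5 (1.65). A search for like genes covered 5985 genes that exceeded 10 FPKM with DMSO in each line and were not listed at 0 in any library. Those nearest to E2F5 were ITPRIPL1 (0.093), TTC9C (0.128) and CTD-2228K2.5 (0.163). Those nearest to E2F1 were SLC35A4 (0.032), TRAPPC13 (0.052) and CNOT3 (0.052). These distances rest on 4 changes that share 2 DMSO libraries.

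The composition of the E2F family within a library does not depend on how libraries are scaled to each other. The FPKM of the 8 E2F genes summed to 205, 100.2 and 74.2 in A673 with DMSO, 50 nM and 200 nM THZ1, and to 160, 71.6 and 46.7 in SKNMC. The high-dose sums were 36.2% and 29.2% of the DMSO sums. E2F1 made up 27.0%, 30.5% and 55.3% of the sum in A673 and 25.3%, 26.2% and 43.8% in SKNMC, so its share was highest with high-dose THZ1 in both lines. The activators E2F1, E2F2 and E2F3 together made up 48.6%, 66.0% and 69.4% in A673 and 46.9%, 53.3% and 55.8% in SKNMC. The share of E2F4 and E2F5 was 33.4%, 20.9% and 21.9% in A673 and 33.5%, 26.4% and 32.1% in SKNMC. In SKNMC this share was thus close to that with DMSO at 200 nM, while in A673 it was lower at both doses. E2F7 and E2F8 together made up 8.49%, 4.45% and 3.39% in A673 and 7.72%, 4.54% and 5.10% in SKNMC. The share of E2F6 was 9.48%, 8.72% and 5.40% in A673 and 11.8%, 15.7% and 6.94% in SKNMC.

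**Figure D3:**
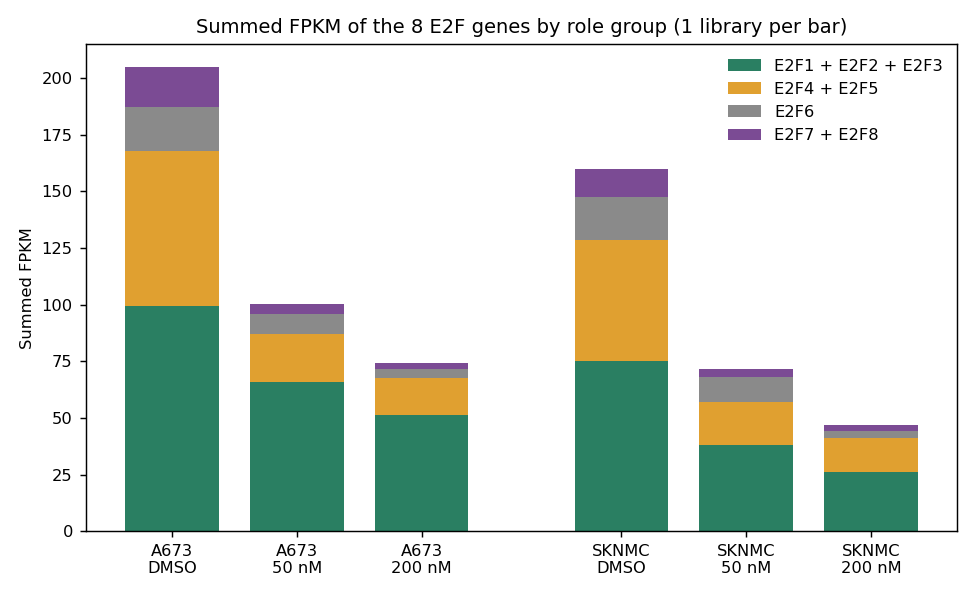
Summed FPKM (y axis, starting at 0) of the 8 E2F genes in each of the 6 libraries (x axis), 1 bar per library, split into E2F1 to E2F3 (green), E2F4 and E2F5 (orange), E2F6 (grey) and E2F7 with E2F8 (purple). The bars are lower at each dose, down to 74.2 in A673 and 46.7 in SKNMC, and the green part makes up a larger share with THZ1 than with DMSO.

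Ratios of gene pairs within a library showed the same shifts. E2F1 was 1.90, 1.15 and 6.41 times as high as E2F3 in A673 with DMSO, 50 nM and 200 nM THZ1, and 1.78, 1.34 and 5.17 times in SKNMC. The ratio of E2F1 to E2F2 was 3.62, 3.43 and 10.2 in A673 and 3.44, 3.41 and 12.5 in SKNMC. Both ratios were thus near their DMSO value or below it at the low dose and above it at the high dose. The ratio of E2F4 to E2F5 was 1.70, 3.53 and 4.22 in A673 and 1.05, 2.88 and 3.10 in SKNMC. The ratio of E2F8 to E2F7 was 2.12, 0.942 and 0.88 in A673 and 1.28, 0.279 and 0.210 in SKNMC. These pairs moved mainly at the low dose, and E2F8 went from the higher to the lower of the atypical genes in both lines. The ratio of CCNE2 to CCNE1 was 3.58, 2.79 and 4.18 in A673 and 1.14, 0.682 and 2.59 in SKNMC. CCNE1 was therefore the more abundant cyclin E transcript of SKNMC at the low dose, and CCNE2 was in its other libraries. With 1 added to each value, the ratio in A673 at 200 nM was 1.01 on the log2 scale, against 2.06 without it.

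**Figure D4:**
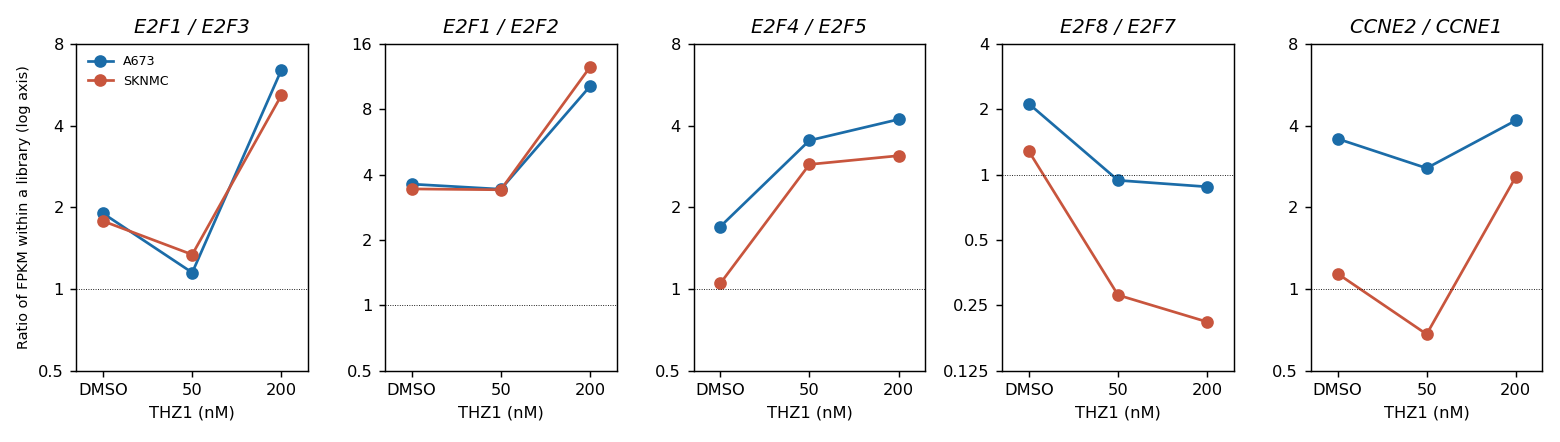
Ratio of the FPKM of gene pairs within a library (y axis, log scale, with its own range in each panel) with DMSO, 50 nM or 200 nM THZ1 (x axis), 1 point per library, A673 in blue and SKNMC in red, with a dotted line at equal levels. The ratios of E2F1 to E2F3 and to E2F2 were highest at 200 nM, and that of E2F8 to E2F7 was below 1 in all 4 THZ1 libraries.

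The partners of these factors were examined in lists of pathway genes, by the number that decreased or increased and by the median. Of the pocket proteins and DP dimer partners (RB1, RBL1, RBL2, TFDP1 and TFDP2), 0 of 5 decreased in any comparison, where 15.8% to 27.3% of active genes did, with medians of -0.19 and -0.24 in A673 and -0.43 and -0.16 in SKNMC. Under the common sum 1 of them decreased in A673 at 200 nM, where 25.5% of active genes did. Under the ribosomal scaling 1 of them in A673 and 2 in SKNMC decreased at 200 nM, where 34.5% and 51.1% of active genes did. RB1 was at 29.6, 25.7 and 34.2 FPKM in A673 and at 31.6, 22.3 and 32.1 FPKM in SKNMC. Its high-dose changes were 0.20 and 0.02, and -0.14 and -0.56 under the ribosomal scaling. The lowest of the list was RBL1, encoding p107, at 9.73, 6.08 and 4.37 FPKM in A673 and at 9.19, 5.75 and 4.29 FPKM in SKNMC, just outside 2-fold at 200 nM in A673. RBL2, encoding p130, changed by -0.35 and -0.24 in A673 and by -0.43 and -0.53 in SKNMC, and the DP protein gene TFDP2 by -0.08, -0.55, 0.14 and -0.16 in the same order.

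Among the kinase partner of cyclin E and its regulators, 0 of 10 active genes decreased at 50 nM and 4 of 10 at 200 nM in A673, and 0 of 11 and 3 of 11 did in SKNMC. The shares of all active genes that decreased were 15.9% and 25.3% in A673 and 15.8% and 27.3% in SKNMC, so the high-dose count in SKNMC was at that share. The medians were -0.23 and -0.43 in A673 and -0.17 and -0.49 in SKNMC, near those of all active genes. CDC25A, the phosphatase that activates CDK2, was at 20.9, 11.7 and 4.27 FPKM in A673 and at 19.6, 16.6 and 2.22 FPKM in SKNMC. It was decreased at high dose alone, by -2.05 and -2.67. CUL1, the scaffold of the SCF ubiquitin ligase, changed by -1.51 and -1.57 at high dose, and CDC34, its ubiquitin-conjugating enzyme, by -1.12 and -0.95. FBXW7, the SCF subunit that recognises cyclin E for degradation, was the gene of the list that increased as deposited, at 50 nM in both lines. It was at 4.84, 11.2 and 5.42 FPKM in A673 and at 4.98, 14.1 and 9.60 FPKM in SKNMC. Its changes were 1.06 and 0.14 in A673 and 1.34 and 0.82 in SKNMC, and under the ribosomal scaling both low-dose changes were under 2-fold (0.85 and 0.96) and that in A673 at 200 nM was -0.16. CDKN1C, an inhibitor of cyclin E kinases, was named after its values were seen. In SKNMC at 200 nM, FBXW7 and CDKN1C were at 1.35 and 1.25 when divided by the 75th percentile, against 0.82 and 0.72 as deposited. That scaling shifted the median of all active genes there by 0.48, and the share of genes increased under it was not computed. CDK2, added after its values were seen, was at 51.0, 37.8 and 45.2 FPKM in A673 and at 41.5, 36.9 and 33.7 FPKM in SKNMC, and was not decreased in any comparison.

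The MuvB core (LIN9, LIN37, LIN52, LIN54 and RBBP4) joins E2F4 and a pocket protein in the repressive DREAM complex and B-MYB or FOXM1 in activating complexes. Of the list of 7 genes made up of this core, MYBL2 and FOXM1, 4 decreased at 200 nM in each line, where 25.3% of active genes in A673 and 27.3% in SKNMC did, and 2 at 50 nM, where 15.9% and 15.8% did. The 4 genes were all of the core. Divided by the 75th percentile, 1 gene decreased at 50 nM in each line, where 11% and 10.3% of active genes did. At 200 nM, 4 genes in A673 and 2 in SKNMC decreased under that scaling, where 17.3% and 13.4% of active genes did. The high-dose medians were -1.34 in A673 and -1.08 in SKNMC. LIN9 was at 13.8, 6.14 and 2.3 FPKM in A673 and at 14.0, 5.52 and 3.18 FPKM in SKNMC. LIN54, the DNA-binding subunit, was at 6.61, 3.97 and 1.0 FPKM and at 9.90, 7.21 and 1.88 FPKM. LIN37 changed by -1.55 and -1.26 and LIN52 by -1.34 and -1.08 at 200 nM, the SKNMC values of both being under 2-fold when scaled to the 75th percentile (-0.89 and -0.68). The other genes of the list, RBBP4, MYBL2 and FOXM1, named here after their values were seen, changed by -0.28 to 0.01 at high dose as deposited.

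Of 9 Polycomb partners of E2F6, 1 decreased at 50 nM in each line, and 3 in A673 and 5 in SKNMC did at 200 nM, with high-dose medians of -0.84 and -1.05. Among all active genes 15.9% and 25.3% in A673 and 15.8% and 27.3% in SKNMC decreased at the low and the high dose, so 1 of 9 and the 3 of 9 in A673 were near the background. Divided by the 75th percentile, the high-dose counts were 1 in A673 and 0 in SKNMC, where 17.3% and 13.4% of active genes decreased. Under the ribosomal scaling the high-dose counts were 5 and 9, where 34.5% and 51.1% of active genes did. L3MBTL2, a subunit of the E2F6 complex, was at 13.4, 4.17 and 5.81 FPKM in A673 and at 15.1, 5.24 and 8.26 FPKM in SKNMC, lower at the low than at the high dose in both lines. PCGF6 was at 18.8, 11.2 and 10.1 FPKM in A673 and at 9.15, 4.44 and 2.85 FPKM in SKNMC. MGA, a DNA-binding subunit of this complex, changed by -1.38 and -1.05 at 200 nM. Its partner MAX changed by -1.0 in A673, just outside 2-fold, and by -1.40 in SKNMC.

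The median changes of the E2F target genes stayed close to those of all active genes, while single genes of the list differed widely. UHRF1 was not matched, and of the other 29 genes, 7 and 8 decreased in A673 at 50 and 200 nM and 5 and 11 did in SKNMC, with 0 increased. The shares of all active genes decreased were 15.9% and 25.3% in A673 and 15.8% and 27.3% in SKNMC, and at most 0.471% increased. Divided by the 75th percentile, the counts were 6 and 5 in A673, where 11% and 17.3% of active genes decreased. In SKNMC they were 3 and 2 under that scaling, where 10.3% and 13.4% did. Under the ribosomal scaling the counts were 7 and 12 in A673, where 21.3% and 34.5% of active genes decreased. They were 10 and 19 in SKNMC, where 28% and 51.1% did. The medians were -0.15 and -0.18 in A673, above those of all active genes by 0.13 and 0.22, and -0.30 and -0.70 in SKNMC, 0.02 above and 0.15 below. Divided by the 75th percentile the A673 medians were 0.10 and 0.19. GINS1, a subunit of the replicative helicase, was at 33.6, 4.75 and 6.31 FPKM in A673 and at 29.4, 5.40 and 7.53 FPKM in SKNMC. CDT1, which loads that helicase, was at 40.5, 10.6 and 9.65 FPKM and at 15.2, 6.04 and 5.63 FPKM, and CDC6, its partner in loading, at 36.1, 12.6 and 12.6 FPKM and at 32.6, 16.1 and 10.4 FPKM. The mitotic kinase AURKB was at 72.4, 26.2 and 26.4 FPKM and at 33.4, 11.1 and 14.0 FPKM. These 4 genes were lower with THZ1 in both lines under every scaling run, with changes between -0.97 and -2.59 as deposited.

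**Figure D5:**
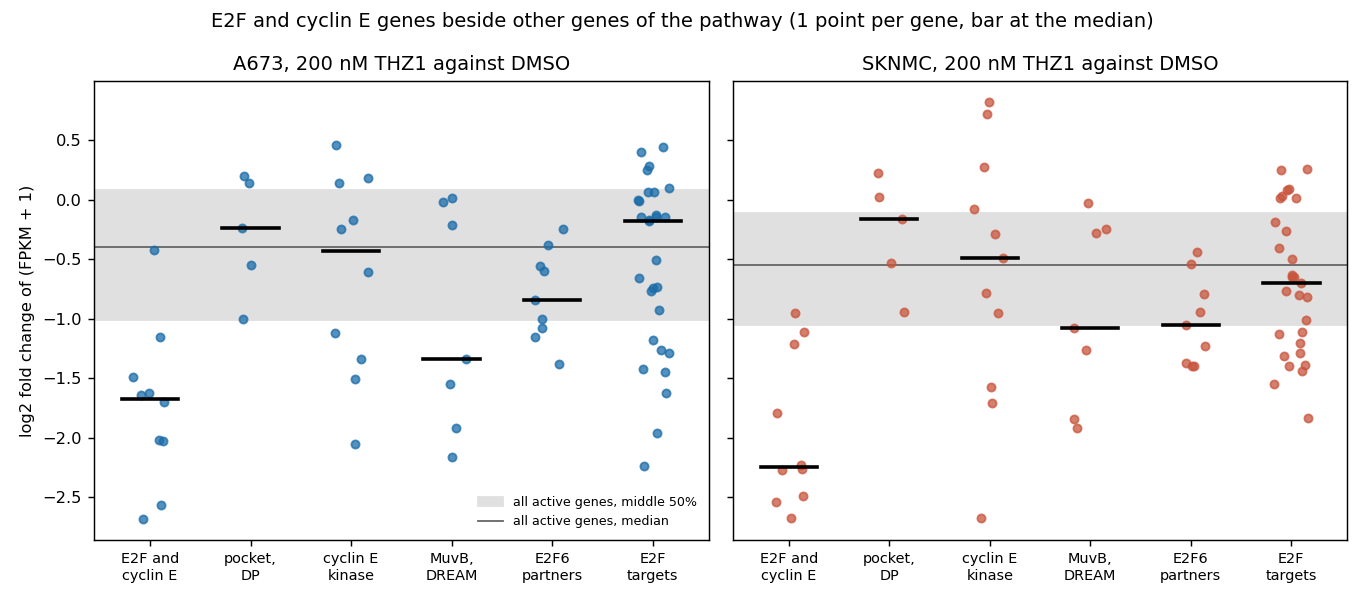
Log2 fold change of FPKM with 1 added (y axis) at 200 nM THZ1 against DMSO for the E2F and cyclin E genes and 5 lists of pathway genes (x axis), 1 point per gene active in the line and a bar at the median, with the median (grey line) and middle 50% (grey band) of all active genes. The medians of the E2F and cyclin E genes, -1.67 in A673 and -2.24 in SKNMC, lay below the grey band in both lines, and those of the E2F targets, -0.18 and -0.70, lay within it.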

How the data were processed

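RNA-Seq values of 6 libraries, 1 per condition, were analysed. TruSeq libraries were read as 100-bp paired ends (HiSeq2000) and aligned with STAR to hg19 using Ensembl 75, and the authors deposited FPKM per gene for 20311 protein-coding and 7109 lincRNA genes. Their methods name StringTie for the FPKM, and the submitters' processing notes name Cufflinks with GRCh37 and hg19. The table's title refers to averages, although the labels hold 1 library for each condition, and each column was taken as 1 library. Whether the counting used strand is not given in the sources used here. The table also holds fold changes against DMSO made by the authors, on a log2 scale, which were not used.

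From the FPKM columns, log2((FPKM + 1) / (FPKM + 1 of DMSO)) was computed with pandas 2.3.3 and numpy 2.4.6, for genes above 1 FPKM with DMSO, and a change of at least 2-fold was called. No test was made within a line, which has 1 library per dose. Across both lines, limma 3.58.1 (trend, Benjamini-Hochberg adjustment) was fitted with line and dose as terms, an alternative added after seeing the data. No interval for counting error is given, since FPKM without counts gives no depth. The steps were tested on simulated data. The 10 genes, the pathway lists and the alternatives were chosen with earlier results of these data known. Named are all 10 genes, the 4 genes of each list with the largest mean change, the 3 genes nearest to E2F5 and E2F1, and those said to be chosen later. Where a list symbol is given to 2 rows (2 symbols), the row with the highest mean FPKM was used. Alternatives were a pseudocount of 0.1, no filter on low values, a 1.5-fold threshold, 1 added to each value of a within-library ratio, and scaling to a common sum, to the 75th percentile of active genes or to the median of 87 ribosomal protein genes. Promoter sequences are those of RefSeq on GRCh38.p14, and gene positions are those of the deposited table on hg19.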

Additional observations from a re-analysis of the deposited data

How the results depend on the processing

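Of the 160 changes of single E2F and cyclin E genes under a pseudocount of 0.1 and 3 other scalings, 159 were below 0. Scaling to the 75th percentile shifted the median change over active genes by 0.22 and 0.32 in A673 and by 0.25 and 0.48 in SKNMC at 50 and 200 nM, and scaling to ribosomal protein genes by -0.19 and -0.29 and by -0.34 and -0.47. The count of decreased genes at 50 nM depended on these choices. Of the 10 genes, 3 in A673 and 2 in SKNMC were decreased under the 75th percentile, and 9 in SKNMC under the ribosomal scaling. With a 1.5-fold threshold, 9 were decreased in each line at 50 nM. At 200 nM the counts were 9 of 10 in A673 under each of these scalings, and between 7 and 10 in SKNMC. At 1.5-fold, the share of active genes decreased was 31.8% and 41.1% in A673 and 33.5% and 48% in SKNMC. Under the 75th percentile it was 11% and 17.3% in A673 and 10.3% and 13.4% in SKNMC. Under the ribosomal scaling it was 21.3% and 34.5% in A673 and 28% and 51.1% in SKNMC. No RNA standard was added, so the scaling nearest to the content of a cell is unknown. With 1 library per condition, variation between cultures cannot be told apart from the effect of THZ1. The fit with the line as a block pairs each THZ1 library with the DMSO library of its line. Under the 4 alternatives run, it gave 8 to 10 genes lower at 50 nM, where 25.1% to 58% of the genes tested were lower. At 200 nM it gave 9 to 10 genes, against 31.9% to 76.6% of the genes tested. Between the doses it gave 4 to 5 genes, against 16.8% to 27.6%.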
